A study of Mus musculus with 12 samples.

Results

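IRF4 peaks of wild-type and NLRP3-knockout CD4 T cells held under Th2 conditions were compared. The IRF4 antibody gave 824 wild-type and 1008 knockout peaks, of 99986 peaks in all 12 lists of the series. Of these, 723 and 869 lay on chromosomes 1 to 19, X and Y. A peak that shared at least 1 bp with a nonspecific immunoglobulin (Ig) or input peak of its own genotype was then left out, which removed 111 wild-type and 94 knockout peaks. The remaining 612 wild-type and 775 knockout peaks are the control-free IRF4 peaks described here. A control-free peak was placed in the shared class where it overlapped a control-free IRF4 peak of the other genotype by at least 1 bp, and otherwise in the wild-type-only or knockout-only class.

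The cells were naive CD4 T cells of spleen and lymph nodes from C57/Bl6j mice 7 weeks old, either wild-type or lacking Nlrp3. Both genotypes were activated on plates coated with CD3 and CD28 antibodies, and were kept for some hours with 10 ng/ml IL-4 while interferon gamma was blocked by an antibody. How many mice gave the cells is not stated in the labels. Chromatin immunoprecipitation and sequencing (ChIP-seq) was done on chromatin of 300000 cells, with 1 library for each genotype and antibody (STAT6, NLRP3, IRF4, BATF, Ig) and for input. With 1 library a side, no difference between genotypes can be set against replicate error, and every comparison is a description of these libraries. The lists carry no read numbers, and library depth is therefore unknown. Neither the Th2 state nor the cell type can be checked from peak positions. The NLRP3 antibody gave 497 wild-type and 557 knockout peaks on these chromosomes, so its lists do not show the loss of the protein, and "knockout" below means the library labelled so.

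IRF4 is an interferon regulatory factor that T cells make after antigen receptor signalling and that Th2 differentiation requires. It binds DNA weakly on its own. In T cells it joins the AP-1 factor BATF and a JUN protein at composite DNA elements, while STAT6 is the factor switched on by the IL-4 receptor. NLRP3 senses danger signals and assembles the inflammasome in the cytoplasm. The question put by the design is how the loss of NLRP3 bears on where these factors sit on chromatin.

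The IRF4 lists of the 2 genotypes had few regions in common. The shared class held 21 regions, with 1 wild-type and 1 knockout peak each. That was 3.43% (2.14 to 5.20) of the wild-type and 2.71% (1.68 to 4.11) of the knockout control-free IRF4 peaks. Intervals here and below are exact Clopper-Pearson 95% intervals, which cover counting error of peaks only. The wild-type-only class held 591 peaks and the knockout-only class 754. The knockout list was the longer, at 1.27 times the wild-type number (1.14 to 1.41).

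Treated in the same way, the STAT6, NLRP3 and BATF lists together had 1.89% of their wild-type and 0.12% of their knockout peaks in the other genotype. These pooled shares are dominated by the long wild-type STAT6 and knockout BATF lists. By antibody, 0.488% (0.267 to 0.817) of 2871 wild-type STAT6 peaks, 1.79% (0.721 to 3.64) of 392 NLRP3 peaks and 8.55% (6.45 to 11.1) of 608 BATF peaks were found again in knockout cells. From the knockout side the order was the reverse, with 8.28% (4.60 to 13.5) of 169 STAT6, 1.45% (0.585 to 2.96) of 483 NLRP3 and 0.0864% (0.0646 to 0.113) of 60161 BATF peaks, so the lengths of the lists bear on these shares. IRF4 lay between STAT6 and BATF in both directions, and its interval overlapped that of NLRP3 in both.

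For Ig, only input could serve as the filter, and 9.58% (7.30 to 12.3) of 574 wild-type Ig peaks were then found in knockout Ig. With this filter on input alone, 12.98% (10.6 to 15.7) of 701 wild-type IRF4 peaks were found in knockout IRF4. Seen from the knockout side, the shares were 10.6% (8.61 to 12.9) for IRF4 and 17.0% (13.0 to 21.6) for Ig. The IRF4 and Ig intervals overlapped from the wild-type side, and from the knockout side the IRF4 share was below that of Ig. With Ig as a further filter, 91 such wild-type IRF4 peaks became the 21 of the shared class.

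The class names depend on the control filter. Of the 754 knockout-only peaks, 18 overlapped a wild-type IRF4 peak that had been left out, and 17 of these 18 lay on a wild-type Ig or input peak. Of the 591 wild-type-only peaks, 7 overlapped a left-out knockout IRF4 peak, all 7 of them on a knockout Ig or input peak. Against the whole IRF4 list of the other genotype, 4.58% (3.06 to 6.54) of wild-type and 5.03% (3.60 to 6.82) of knockout peaks were found again, in place of 3.43% and 2.71%.

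In each list taken alone, the median shared peak stood high. Each peak carries the authors' own score from MACS, read as 10 times the negative log10 of its p, which can rank the peaks of a list but does not compare occupancy between lists. Scores of the wild-type-only class ran from 50.04 to 432 with a median of 58.8, and those of the shared wild-type peaks from 55.96 to 194 with a median of 94.6. Scores of the knockout-only class ran from 50.06 to 190.1 with a median of 66.3, and those of the shared knockout peaks from 51.9 to 160.35 with a median of 103.

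Expressed as rank from the top, the median shared peak stood at 8.42% of the wild-type list (2.78 to 31.9) and at 6.58% of the knockout list (1.94 to 30.1). The wild-type-only and knockout-only medians were at 51.2% and 50.7%, where a list is centred by construction. Of the 21 shared regions, 11 were in the top 10% of the wild-type list and 12 in that of the knockout list. The top 10% held 8.46% (6.34 to 11.0) of the wild-type-only and 9.42% (7.43 to 11.7) of the knockout-only peaks.

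**Figure D1:**
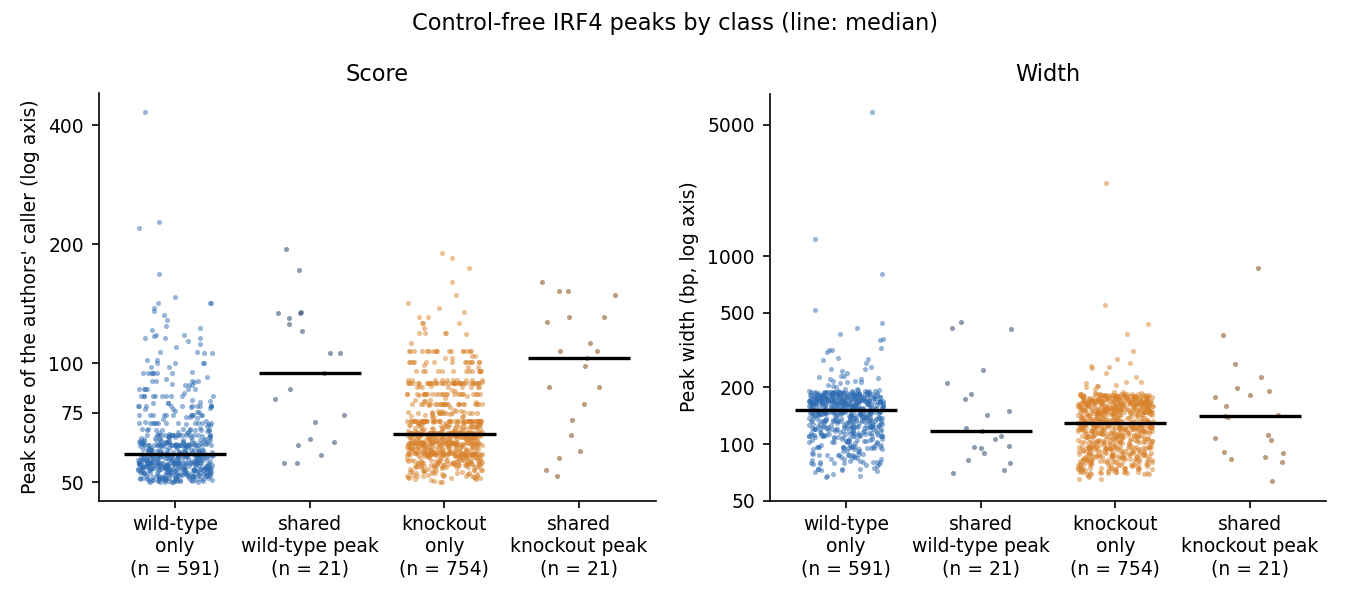
Score (left) and width in bp (right) of every control-free IRF4 peak on log axes, by class; points are peaks and lines are medians. Shared peaks have median scores of 94.6 and 103 against 58.8 and 66.3 in the classes found in 1 genotype, while widths overlap widely and scores form steps, most plainly in the knockout list.

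The share of peaks found again went with score in wild-type cells, from 0.915% (0.189 to 2.65) of 328 peaks scored 50 to under 60, through 2.86% (0.934 to 6.54) of 175 and 4.62% (0.962 to 12.9) of 65, to 22.7% (11.5 to 37.8) of 44 peaks scored at least 100. The middle classes are 60 to under 75 and 75 to under 100. In knockout cells the same 4 classes gave 1.96% (0.537 to 4.94) of 204, 0.559% (0.0677 to 2.003) of 358, 2.72% (0.746 to 6.82) of 147 and 16.7% (8.62 to 27.9) of 66 peaks. The share was largest in the highest class of both lists. Its interval was apart from all lower classes in the knockout list, and from those under 75 in the wild-type list.

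The 2 lists filled these classes differently. Scores under 60 made up 53.6% of the wild-type and 26.3% of the knockout list, and scores of 60 to under 75 made up 28.6% and 46.2%. Many peaks had equal scores, 68.0% of the wild-type and 76% of the knockout peaks. The commonest value was 62.03 in wild-type cells, with 26 peaks, and 66.57 in knockout cells, with 47 peaks. A further 37 knockout peaks scored 89.15 and were 83 to 97 bp wide. None of the knockout peaks at the 3 commonest scores, 47, 37 and 35 in number, was shared. At the 3 commonest wild-type scores 1 of 26, 2 of 21 and 0 of 18 peaks were. Over the whole lists only 2.71% of knockout and 3.43% of wild-type peaks were shared, so these small counts are not read as a trait of tied peaks.

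Width did not clearly separate shared peaks from the rest. The median width was 151 bp (147 to 155) in the wild-type-only and 129 bp (126 to 133) in the knockout-only class, where the interval in brackets is the exact one for a median. Shared peaks had medians of 117 bp (95 to 185) for the wild-type and 141 bp (91 to 192) for the knockout list, and these wide intervals held those of the other peaks. Peaks of higher score were narrower: the median went from 164 bp under a score of 60 to 96.5 bp at 100 or more in wild-type cells, and from 158 to 78 bp in knockout cells. Peaks over 300 bp numbered 16 in the wild-type and 7 in the knockout list.

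The widest wild-type-only peak, chr17:39979917-39985757, was 5841 bp wide and had the highest score of the control-free wild-type list, 432. It met a wild-type STAT6 peak of 59.4 and no knockout IRF4, Ig or input peak. The widest knockout-only peak, chr17:13743546-13746003, was 2458 bp wide with a score of 119. It lay on a wild-type IRF4 peak of 158 and a wild-type Ig peak of 129, so only the filter kept it out of the shared class. These coordinates are those deposited, except that each start is raised by 1 so that positions count from 1. The submitters' processing notes name mm8, but the last wild-type IRF4 peak of chromosome 1, chr1:197105421-197105509, lies past the end of that chromosome in mm8 and within it in mm9, so mm9 is the more probable build. No annotation of either build was used, so genes and sequences at the peaks were not analysed here.

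The shared regions were then taken one by one, ordered by the worse of their ranks in the 2 lists. The region at chr13:58869767-58869861 led, with an IRF4 score of 194 in the wild-type list (rank 4 of 612) and 149 in the knockout list (rank 9 of 775). BATF had peaks of 284 and 56.7 there in the same order, and STAT6 and NLRP3 had none. The peaks of the 2 genotypes shared 81 bp and their centres lay 8 bp apart.

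At chr9:23522173-23522346 IRF4 scored 134 in the wild-type and 152 in the knockout list. Wild-type STAT6 and BATF scored 228 and 111 at this site, and NLRP3 scored 234 in the knockout only. The site is therefore one where the NLRP3 antibody gave a peak in cells labelled as lacking NLRP3 and none in wild-type cells.

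At chr5:114623087-114623183 IRF4 scored 126 and 131. Wild-type BATF reached 671 there, the highest BATF score at any shared region, with 90.4 in knockout BATF and 118 in wild-type NLRP3. At chr17:63086892-63086989 IRF4 scored 130.3 and 113, and both STAT6 lists (141 and 63.8) and both BATF lists (79.7 and 56.7) had a peak. At chr14:104736152-104736233 IRF4 scored 94.6 and 108 and BATF 291 and 56.7, with no STAT6 or NLRP3 peak. These 3 regions have a BATF peak in both genotypes, as the leading one does. The knockout BATF score was 56.67 at all of them but the region with 90.4. That is the commonest score of the knockout BATF list, held by 87.96% of its peaks, so BATF in both genotypes rests there on the list's commonest score.

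The region at chr2:23343464-23343533 had IRF4 scores of 106 and 103 and no peak in any other list. It was also the narrowest shared region in both lists, at 70 and 64 bp, with the smaller peak wholly inside the larger. It is the only one of the 6 regions in the top 10% of both IRF4 lists that had no BATF peak.

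The next 4 in the order were in the top 20% of both lists. At chr19:34919997-34920075 IRF4 scored 86.0 in the wild-type and 160.35 in the knockout list, and knockout STAT6 scored 102. At chrX:137724798-137724870 IRF4 scored 106 and 87.1, and wild-type STAT6 scored 81.9. At chr18:82390362-82390451 IRF4 scored 135 and 86.95 and both STAT6 lists had a peak, at 82.6 and 153, with wild-type NLRP3 at 76.5 and wild-type BATF at 73.5. At chr3:152364608-152364729 IRF4 scored 74.0 and 98.5, with STAT6 at 50.8 and 98.2 and NLRP3 at 90.6 and 52.6 in the 2 genotypes. In this group STAT6 was present at all 4 regions and BATF at 1.

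**Figure D2:**
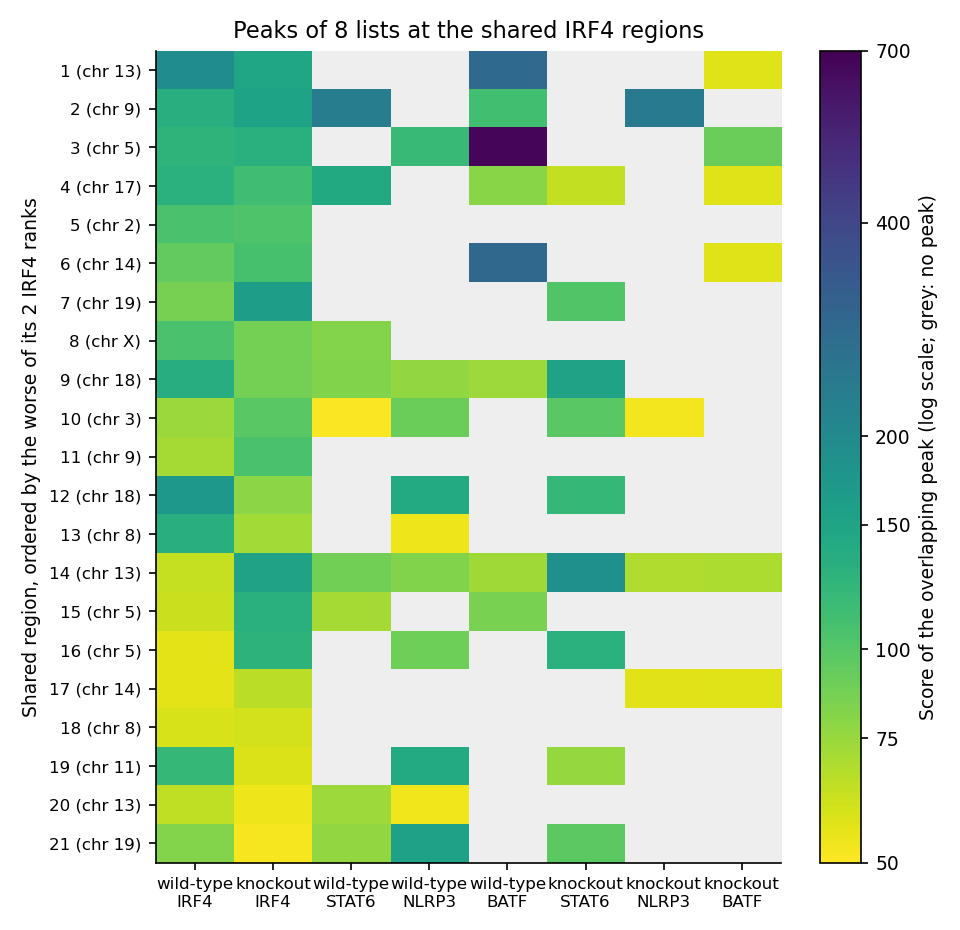
Scores (log colour scale) of the peaks of 8 lists that overlap the 21 shared IRF4 regions, 1 row a region, with the chromosome in brackets; grey means no peak. The upper rows, ranked high in both genotypes, hold most of the BATF peaks. Of the 13 regions with a STAT6 peak and the 12 with an NLRP3 peak in either genotype, 2 and 2 are among the 6 in the top 10% of both IRF4 lists.

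The other 11 shared regions were outside the top 20% of at least 1 list. On chromosome 5 the regions at chr5:115372481-115372591 and chr5:147478156-147478262 scored 55.96 and 62.0 in wild-type IRF4 but 127 and 131 in knockout IRF4. The reverse held at chr11:53953582-53953997, with 120.5 in the wild-type and 57.55 in the knockout list, at chr18:3005550-3005993, with 172 and 79.1, and at chr8:15519776-15520023, with 134 and 71.95. At the chromosome 11 and 18 regions wild-type NLRP3 scored 139.6 and 140.0, and knockout STAT6 75.5 and 120.3. So high rank in 1 list often went with a middling or low rank in the other.

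The region at chr13:74667717-74668125 scored 63.3 in wild-type IRF4. The knockout peak over it was 863 bp wide, scored 153 and met all 6 STAT6, NLRP3 and BATF lists. That knockout peak also overlapped a left-out wild-type IRF4 peak of 189.6, so the wild-type peak of the shared class is not the higher-scored one at this place. The remaining 5 regions, on chromosomes 8, 9, 13, 14 and 19, had IRF4 scores between 55.96 and 81.3 in the wild-type list and between 51.9 and 107 in the knockout list. Of these, the ones on chromosomes 8 and 9 met no other list.

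Across the 21 shared regions, 6 were in the top 10% of both lists, 5 in that of the wild-type list alone, 6 in that of the knockout list alone and 4 in neither. Relative rank was better in wild-type cells at 11 regions and in knockout cells at 10. Spearman's rho between the ranks was 0.0903 over the 21 regions, which were selected for having a peak in both lists. Among these 21 regions a rank in 1 list thus said little of the rank in the other. No interval was computed for rho, and peaks without a partner in the other list are not covered. The peaks of a shared region overlapped by a median of 91 bp (range 55 to 392), and their centres lay a median of 19.5 bp apart, at most 244 bp. Overlap chose these regions, so both values only describe them.

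**Figure D3:**
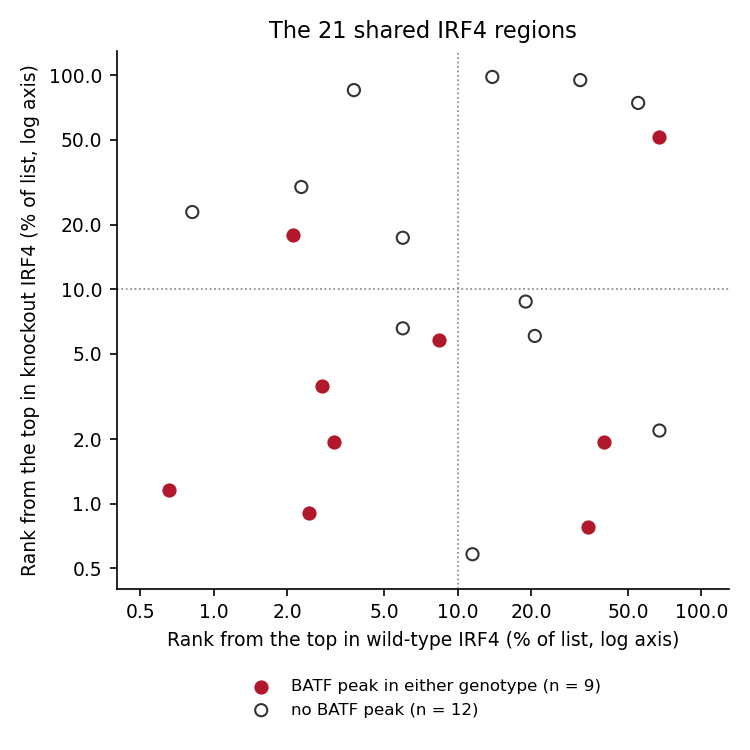
Rank from the top, as a percent of the list on log axes, of the 21 shared regions in wild-type (x) and knockout (y) IRF4; filled points have a BATF peak in either genotype and dotted lines mark the top 10%. Of the 6 regions in the lower left corner 5 have a BATF peak, against 4 of the other 15.

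The other factor lists were searched next, as deposited and with 1 bp of overlap. Shared IRF4 peaks met them far more often than peaks found in 1 genotype. Of the 21 shared regions, 18 met at least 1 of the 6 STAT6, NLRP3 and BATF lists, or 85.7% (63.7 to 96.95). In the wild-type-only class 75 peaks did so, or 12.7% (10.1 to 15.6), and in the knockout-only class 55, or 7.29% (5.54 to 9.39). Score moves with this count, since shared peaks are of higher score, and its part in the difference was not tested beyond the score classes below.

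BATF is the AP-1 partner of IRF4. Of all control-free wild-type IRF4 peaks 3.76% met wild-type BATF and 4.41% knockout BATF. For the shared wild-type peaks the counts were 7 of 21 (33.3%, 14.6 to 57.0) and 5 of 21 (23.8%, 8.22 to 47.2). For the wild-type-only peaks they were 16 of 591 (2.71%, 1.56 to 4.36) and 22 of 591 (3.72%, 2.35 to 5.58). The knockout BATF list covered 3568 kb in 60292 peaks and the wild-type one 86.9 kb in 689, so the near-equal counts come from lists of very unequal reach. In that knockout BATF list 87.96% of the peaks had the same score of 56.67. Of the IRF4 peaks on knockout BATF, 13 of 22 wild-type-only and 4 of 5 shared wild-type peaks met it at no more than that score.

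Among knockout IRF4 peaks, 2.97% met wild-type BATF and 4.13% knockout BATF. The shared knockout peaks gave 8 and 6 of 21. The knockout-only peaks gave 15 of 754 (1.99%, 1.12 to 3.26) and 26 of 754 (3.45%, 2.26 to 5.01). Seen the other way, 7 of the 23 wild-type IRF4 peaks on wild-type BATF were found again in knockout IRF4 (30.4%, 13.2 to 52.9), against 14 of the 589 others (2.38%, 1.31 to 3.96). This was not particular to BATF. On wild-type STAT6 the share found again was 25.7% (9 of 35) against 2.08% of the others, and on wild-type NLRP3 21.3% (10 of 47) against 1.95%.

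STAT6 carries the IL-4 signal. Of all wild-type IRF4 peaks 35, or 5.72%, met wild-type STAT6, and 35, again 5.72%, met knockout STAT6. These were 9 and 9 of the 21 shared wild-type peaks and 26 and 26 of the 591 wild-type-only ones. The equal counts came from lists of 2970 and 258 peaks covering 396 and 93.0 kb. As a share of the STAT6 lists, 13.0% (8.34 to 19.04) of the 169 control-free knockout STAT6 peaks and 1.18% (0.821 to 1.65) of the 2871 wild-type ones lay on a wild-type IRF4 peak. Of the wild-type-only IRF4 peaks on STAT6, 18 met the wild-type list only, 18 the knockout list only and 8 both.

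Knockout IRF4 peaks met wild-type STAT6 in 5.42% and knockout STAT6 in 3.23% of cases. For the shared knockout peaks both counts were 9 of 21. Knockout-only peaks met wild-type STAT6 33 times (4.38%, 3.03 to 6.09) and knockout STAT6 16 times (2.12%, 1.22 to 3.42). Of the knockout-only IRF4 peaks on STAT6, 3 met the knockout list only, 20 the wild-type list only and 13 both.

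The NLRP3 antibody showed the widest gap between the classes. Of all wild-type IRF4 peaks 7.68% met wild-type NLRP3 and 1.31% knockout NLRP3. Of the wild-type-only peaks 37 met wild-type NLRP3 (6.26%, 4.45 to 8.53) and 5 met knockout NLRP3 (0.846%, 0.275 to 1.96). For all knockout IRF4 peaks the shares were 3.87% and 2.19%. Of the knockout-only peaks 20 met wild-type NLRP3 (2.65%, 1.63 to 4.07) and 13 knockout NLRP3 (1.72%, 0.921 to 2.93). Shared regions met wild-type NLRP3 10 times in 21, and the knockout list 3 times for the wild-type and 4 times for the knockout peaks. Wild-type-only peaks thus met wild-type NLRP3 the more often, while in the knockout-only class the intervals of the 2 NLRP3 lists overlapped. That order in the knockout-only class was lost without the control filter (9 against 9 of 749 peaks) and when peaks of the whole wild-type IRF4 list were left out of the class (5 against 5 of 736). With Ig and input of either genotype left out, 0.820% of knockout-only and 4.56% of wild-type-only peaks met wild-type NLRP3. The intervals of the 2 classes overlapped on all sequences (7.45% wild-type-only, 5.33% knockout-only). They also overlapped at a minimum score of 100 set on the IRF4 lists and on every factor list searched (28.2%, 8.20%). With the wild-type NLRP3 list as deposited, 18 of 34 wild-type-only peaks scored at least 100 met it (52.9%, 35.1 to 70.2). Of the knockout-only peaks scored at least 100, 7 of 55 did (12.7%, 5.27 to 24.5), and these intervals were apart. The wild-type NLRP3 list covered 91.4 kb and the knockout one 72.3 kb, in 497 and 557 peaks.

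**Figure D4:**
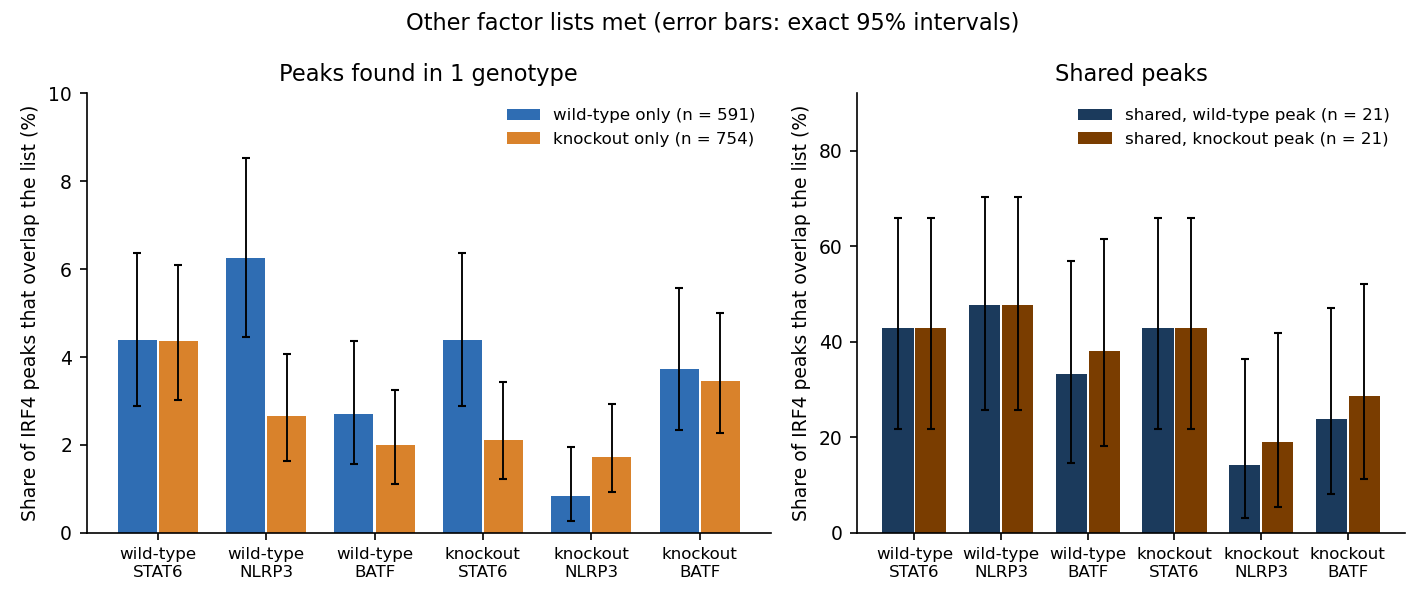
Share of IRF4 peaks in percent that overlap each of 6 factor lists, for peaks found in 1 genotype (left) and shared peaks (right, with a different scale); error bars are exact 95% intervals. The wild-type-only and knockout-only intervals are apart for wild-type NLRP3 (6.26% against 2.65%), and they overlap for the other 5 lists.

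Ig peaks outside input gave the background for these overlaps. Of 574 wild-type Ig peaks 14.5% (11.7 to 17.6) met wild-type STAT6, 14.6% (11.8 to 17.8) wild-type NLRP3 and 10.5% (8.07 to 13.3) wild-type BATF. Of 318 knockout Ig peaks 21.1% (16.7 to 26.0) met knockout STAT6, 18.6% (14.4 to 23.3) knockout NLRP3 and 17.3% (13.3 to 21.9) knockout BATF. These shares are above those of the control-free IRF4 peaks as a whole, from which Ig regions had been removed. The shared wild-type peaks stood above wild-type Ig for all 3 factors (42.9%, 47.6% and 33.3%), with intervals that did not overlap. The shared knockout peaks met knockout STAT6, NLRP3 and BATF in 9, 4 and 6 of 21 cases, with intervals that overlapped those of knockout Ig. Shared peaks were chosen for recurring in both genotypes, while only 55 of the 574 wild-type Ig peaks recurred. Recurring Ig peaks were not examined alone, so this comparison cannot set the shared class apart from recurring background.

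The score classes separated the genotypes further. Among wild-type-only peaks 4.92% (2.84 to 7.87) of those scored under 60 met any of the 6 lists, and 10% (5.93 to 15.5), 27.4% (16.9 to 40.2) and 73.5% (55.6 to 87.1) in the classes above. Among knockout-only peaks the same classes gave 4% (1.74 to 7.73), 4.21% (2.38 to 6.85), 11.9% (7.08 to 18.4) and 27.3% (16.1 to 40.96). Under a score of 60 the genotypes were alike within their intervals, and at 100 or more the wild-type-only share was the larger, with 25 of 34 against 15 of 55 peaks.

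With the factor lists as deposited, the gap held on ranks, which do not rest on a common score. At a minimum score of 100 set on the IRF4 lists and on every factor list searched, the intervals overlapped (43.6%, 27.8 to 60.4, against 22.95%, 13.2 to 35.5). In the top 10% of each list 29 of 50 wild-type-only peaks (58%, 43.2 to 71.8) and 15 of 71 knockout-only peaks (21.1%, 12.3 to 32.4) met any list. Outside the Ig and input peaks of the other genotype as well, the shares were 50% (34.2 to 65.8) of 42 and 13.8% (6.53 to 24.7) of 65. Wild-type NLRP3 accounted for 18 of the 50 wild-type-only peaks (36%, 22.9 to 50.8) and 7 of the 71 knockout-only peaks (9.86%, 4.06 to 19.3), and wild-type STAT6 for 14 and 10. Taken list by list, only wild-type NLRP3 had intervals apart between the classes. For wild-type STAT6 they overlapped (28%, 16.2 to 42.5, against 14.1%, 6.97 to 24.4), as they did for every other list. High-ranking knockout-only peaks thus mostly had no STAT6, NLRP3 or BATF peak in either genotype.

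The leading peaks of each class show this. After chr17:39979917-39985757, the highest wild-type-only peak outside every Ig and input list was chr17:71312981-71313147 with a score of 168, on wild-type NLRP3 at 155 and knockout STAT6 at 67.6. It was followed by chr9:3258737-3258921 with 147, on wild-type NLRP3 at 77.8. Then came 3 peaks tied at 142. Of these chr14:9119155-9119239 met wild-type NLRP3 at 81.2, chr5:93718664-93718739 met wild-type STAT6 at 123.5 and knockout BATF at 67.0, and chr1:102076695-102076793 met nothing. The last 2 of the 8 named were chr9:88448051-88448138 with 138, on BATF peaks of 481 (wild-type) and 90.4 (knockout) and wild-type NLRP3 at 82.9, and chr10:60836780-60836848 with 135, on wild-type STAT6 at 123.5 and NLRP3 at 135. All but 1 of these 8 met another factor list.

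The highest knockout-only peak outside every Ig and input list was chr8:73956986-73957056, with a score of 190.1. It met wild-type STAT6 at 112, knockout STAT6 at 101, knockout NLRP3 at 79.7 and knockout BATF at 56.7. The next, chr6:10136376-10136458, scored 160.35 and met wild-type BATF at 201 and no knockout list. The peaks chr2:139071787-139071866, chr8:85076214-85076290, chr4:76076836-76076905, chr15:88541900-88541969 and chr3:72700252-72700320 scored 142, 138, 130.6, 127 and 127 and met no other list. The last of the 8, chr9:113320066-113320135, scored 127 and met knockout BATF at 56.7. These 8 peaks were 69 to 83 bp wide.

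Peaks that met many lists often lay on background peaks of the other genotype. Of the knockout-only peaks that met 4 or more of the 6 lists, 11 of 13 lay on a wild-type Ig or input peak, and the same number overlapped a left-out wild-type IRF4 peak. Of the wild-type-only peaks that met 4 or more, all 4 lay on a knockout Ig or input peak and 3 on a left-out knockout IRF4 peak. Among peaks that met no list, 2 of 699 knockout-only and 5 of 516 wild-type-only peaks lay on such background.

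Examples are chr14:59277523-59277602 and chr12:16754592-16754695, which met all 6 lists. The former scored 149 in knockout IRF4 and lay on a wild-type IRF4 peak of 126 and a wild-type Ig peak of 79.3. The latter scored 102 in wild-type IRF4 and lay on a knockout IRF4 peak of 172 and a knockout Ig peak of 98.55. At chr6:132413717-132413812, with an IRF4 score of 228 in wild-type cells, wild-type BATF reached 633. Knockout IRF4 scored 163 there but was left out for a knockout input peak of 57.35, the score that 86.4% of that list share. At chr11:107060555-107060808 knockout IRF4 scored 174, wild-type IRF4 253 and wild-type Ig 106. All 4 places carry IRF4 peaks in both genotypes and are counted in a class of 1 genotype.

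**Figure D5:**
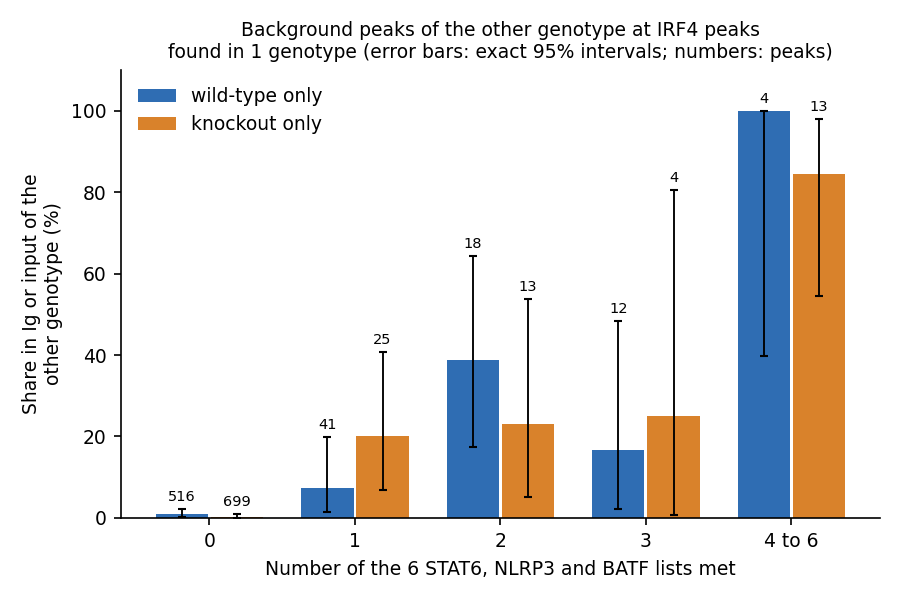
Share in percent of wild-type-only and knockout-only IRF4 peaks that lie on an Ig or input peak of the other genotype, by the number of the 6 factor lists they meet; error bars are exact 95% intervals and the numbers give the peaks in each group. The share is under 1% for peaks that meet no list and 100% and 84.6% for those that meet 4 to 6 lists, with few peaks in the upper groups.

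Spread and spacing gave little that set the classes apart, except for the distance to the IRF4 peaks of the other genotype. Control-free IRF4 peaks lay on 20 of the 21 chromosomes, with none on Y. Their density was 23.8 per 100 Mb for the wild-type and 30.1 for the knockout list, and by chromosome it ran from 20.3 to 33.1 and from 20.8 to 41.9. Knockout peaks were the more numerous on 17 chromosomes. The ratio of knockout to wild-type number ran from 0.759 (0.415 to 1.37) on chromosome 18 to 1.96 (1.20 to 3.28) on chromosome 14, and on all 20 the interval held the overall 1.27. The shared regions lay on 12 chromosomes, with at most 3 on each.

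The stretch within 5 Mb of the lowest peak position of a chromosome, next to the centromere in mouse, held 38 wild-type-only peaks (6.43%, 4.59 to 8.72) and 29 knockout-only peaks (3.85%, 2.59 to 5.48). It held 2 of the 21 shared regions, chr13:3372679-3372888 and chr18:3005550-3005993. The intervals of the classes found in 1 genotype overlapped.

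Peaks were far apart. The nearest peak of the same list was at a median distance of 1391 kb (1253 to 1600) for wild-type-only and 1205 kb (1014 to 1431) for knockout-only peaks. The nearest IRF4 peak of the other genotype was at a median of 1043 kb (937 to 1179) and 1468 kb (1297 to 1614). These 2 intervals were apart, but the lists searched were of unlike length, with 775 knockout and 612 wild-type peaks. The part of list length in this was not tested. Only 8 wild-type-only and 6 knockout-only peaks had a peak of their own list within 1 kb.

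A few peaks just missed the shared class. In each direction 5 peaks lay within 1 kb of a peak of the other genotype without overlap. In 4 of these pairs the neighbour belonged to a shared region. Thus chr11:53954018-53954205, a wild-type-only peak of 76.4, lay 90 bp from the shared knockout peak on chromosome 11. The other 3 pairs joined peaks of classes found in 1 genotype. On chromosome 6 the wild-type peak chr6:29698832-29698994 (77.4) and the knockout peak chr6:29698136-29698571 (89.7) were 260 bp apart, and the knockout one also overlapped a left-out wild-type IRF4 peak of 115.7. On chromosome 3 a pair scored 68.6 and 55.5 at 136 bp, and on chromosome 13 a pair scored 75.15 and 51.96 at 103 bp.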

How the data were processed

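The 12 ChIP-seq libraries each have 1 deposited peak list. Per the file headers, MACS run in Galaxy called the peaks. Not given in the sources used here are its version, cut-off and control library. Reads were aligned with Bowtie2, per the submitters' processing notes, which name mm8. The score in each deposited list is the authors' own value per peak, not normalized between libraries and never below 50.04.

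Overlaps, distances and merging were computed in Python 3.11.15 (scipy 1.17.1, pandas 2.3.3, numpy 2.4.6) and checked against bedtools 2.31.1 on simulated lists. Figures used matplotlib 3.10.9. Shares carry exact Clopper-Pearson intervals and medians exact order-statistic intervals. No test between groups was made. Named regions are the 10 shared ones with the best worse rank, the 8 highest of each other class outside every Ig and input list, the 5 in the most lists, and the widest of each class. Others were named after their values were seen. The members, classes and rules were chosen with earlier results of these data known. Alternatives were minimum scores of 60 and 100, overlap of 50%, a distance of 1000 bp, other control filters, all sequences, and merging. The minimum scores were set on the IRF4 lists and on every factor list searched. Comparison with the whole list of the other genotype, the score classes and the top 10% were added after the data were seen.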

Additional observations from a re-analysis of the deposited data

Results flagged for a closer look

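Peaks on sequences other than chromosomes 1 to 19, X and Y were outside the comparisons above. By count, IRF4 had more of them outside input than Ig had, but its lists were also longer. In wild-type cells 97 IRF4 peaks and 91 Ig peaks lay there outside input, a near-equal number. In knockout cells 135 IRF4 peaks and 77 Ig peaks did. On chromosomes 1 to 19, X and Y, 701 wild-type and 849 knockout IRF4 peaks lay outside input. For Ig these numbers were 574 and 318, so relative to list length Ig had the more peaks on the other sequences in both genotypes. This excess was small in wild-type and larger in knockout cells, and no interval was computed for it. After removal of Ig regions as well, 29 wild-type and 70 knockout IRF4 peaks were left on these sequences. Most of the IRF4 peaks there, 96 of 101 in wild-type and 124 of 139 in knockout cells, were on Un_random, a collection of unplaced sequence.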

How the results depend on the processing

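Minimum scores here cut both IRF4 lists and every factor list searched, unlike the score classes above, which cut no list searched. The share of wild-type IRF4 peaks found in the knockout moved from 3.43% to 11.4% with a minimum score of 100 and to 5.28% with 60. It moved to 16.7% without the control filter and to 5.77% on all sequences. For knockout peaks it moved from 2.71% to 7.58% with a minimum score of 100, 13.8% without the filter, 4.50% on all sequences and 5.03% against the whole wild-type list. The knockout list was 1.5 times as long as the wild-type one at a minimum score of 100 and 2.01 times at 60. The share of wild-type-only peaks that met any of 6 lists became 43.6% at a minimum of 100, 19.3% at 60 and 17.6% within 1000 bp. For knockout-only peaks it became 22.95%, 13.1% within 1000 bp, 4.78% with Ig and input of either genotype left out, 11.8% on all sequences and 5.03% against the whole list. For shared peaks it became 97.5% in both genotypes without the filter. The other 43 alternative values of these 7 quantities stayed within the interval of the reported value. The median width of shared minus wild-type-only peaks turned from -34 bp to 1 bp at a minimum score of 100, 42 bp without the filter and 33.5 bp on all sequences, and that of shared minus knockout-only peaks from 12 bp to -6 bp at 60; the cause was not tested. No paired analysis was possible because each group holds 1 library. Depth is unknown, so an absent peak does not show an absent site.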
